A study of Mus musculus with 6 samples.

Results

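The EGR, FOS and JUN immediate early factors were examined in MLE12 cells with knockdown of *Idh3α* and *Slc25a1*. The family members were *Egr1*, *Egr2*, *Egr3*, *Fos*, *Fosb*, *Fosl1*, *Fosl2*, *Jun*, *Junb* and *Jund*, 10 of the 54532 genes in the count table, and each was found by its gene name. They were chosen from the difference between the knockdown and control samples in these same data. Their differences between the groups are therefore a description, and the calls and intervals printed for them support nothing.

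Immediate early genes are transcribed within minutes of a stimulus, without the need for new protein synthesis. The EGR proteins are zinc-finger transcription factors that bind GC-rich sites. FOS proteins pair with JUN proteins to form the AP-1 transcription factor, whereas JUN proteins can also pair with each other. Growth factors and stress induce these genes through the ERK, JNK and p38 kinases, and many of their mRNAs are short-lived because of AU-rich elements in the 3′ UTR. In lung epithelial cells they are known as early responders to growth factors, mechanical strain and injury.

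MLE12 is a continuously growing mouse lung epithelial line, labelled C57BL/6J here, that was derived from a tumor driven by the SV40 large T antigen under the surfactant protein C promoter. The control group (Ctrl shRNA, n = 3) received 1 lentivirus at an MOI of 50, described in the labels both as an empty vector and as a control shRNA virus. The knockdown group (Idh3α shRNA + Slc25a1 shRNA, n = 3) received 2 lentiviruses at an MOI of 50 each, so the total dose of virus was larger in this group. All cells were grown with the transduction enhancer HitransG P and low serum, exposed to virus for 16 h and cultured for another 80 h. *Idh3α* encodes the catalytic subunit of the mitochondrial isocitrate dehydrogenase, and *Slc25a1* encodes the mitochondrial citrate carrier. The comparison asks what reducing both, which act on the use and export of mitochondrial citrate, does to the mRNAs of these cells. The RNA was taken at 1 time point, days after infection.

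The libraries held 27273502 to 28535653 counts. Levels are given as CPM, counts scaled to a fixed TMM-adjusted library size, and as FPKM, which also divides by gene length. *Idh3α* ranged from 79.8 to 137 CPM in the controls and from 55.5 to 58.5 CPM in the knockdown samples, and *Slc25a1* from 98.7 to 108 and from 63.0 to 69.6 CPM, so both targeted genes followed the labels. Ctrl shRNA replicate 2 stood apart from the other 5 libraries: 16681 genes were detected in it against 19902 to 23147, 6.49% of its counts came from mitochondrially encoded genes against 1.57% to 1.80%, and its TMM factor was 0.711 against 1.05 to 1.09. The fold change of each family member is therefore also given without it. Of the alveolar type 2 markers, *Nkx2-1* (324 to 343 CPM in the controls, 277 to 302 CPM in the knockdown samples, log2 fold change -0.20, adjusted p = 0.353 from edgeR) and *Abca3* (110 to 141 CPM) were present, *Sftpc* ranged from 44.1 to 97.3 CPM in the controls and from 27.2 to 35.9 CPM in the knockdown samples (log2 fold change -1.07, adjusted p = 0.315 from edgeR, and -0.65, adjusted p = 0.0438, without Ctrl shRNA replicate 2), and *Sftpd* was at 0 in all libraries. The 8 markers together came to 524 to 533 CPM in the controls and 442 to 473 CPM in the knockdown samples, and *Napsa* lay the other way (0.453 to 0.759 against 1.18 to 1.38 CPM, log2 fold change 1.01, adjusted p = 0.334 from edgeR). Of the 5 type 2 markers tested, 3 had a positive log2 fold change, as did 2 of the 6 tested without Ctrl shRNA replicate 2. The 6 epithelial markers came to 1051 to 1185 and 1184 to 1296 CPM. The 6 immune markers were near 0 (1.74 to 2.92 CPM, with *Ptprc* at 0), as were the 4 endothelial markers (0 to 0.989 CPM), and the 6 fibroblast markers came to 346 to 1233 CPM in the controls and 317 to 345 CPM in the knockdown samples, the highest in Ctrl shRNA replicate 2, where *Dcn* alone had 1211 CPM. The part of these markers in the results below was not tested.

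The 3′ UTRs of all 10 family members held at least 1 ATTTA pentamer, the core of the AU-rich element, as did 61.7% of 20588 protein-coding genes with a 3′ UTR (GENCODE M21, GRCm38). *Fos*, *Jun* and *Junb* had 4.91, 3.24 and 4.12 pentamers per kb of 3′ UTR, against a median of 1.13 over all genes. *Egr2* and *Egr3* had 2.50 and 2.65, *Fosl1*, *Egr1*, *Fosl2* and *Jund* 1.57 to 1.88, and *Fosb* 0.466. *Fosl2* had the most pentamers in number (8), in a 3′ UTR of 4653 bases. The longer motif TTATTTATT was found only in *Fos* and *Fosl2* among the 10, and in 6.93% of all genes. Shown here is a stretch of 30 bases with 2 pentamers from the 3′ UTR of 3 of them, because *Fos* was lower, *Fosl2* higher and *Jun* nearly level between the groups. The capitals mark ATTTA. The stretches lie at chr12:85477100-85477129 (plus strand) for *Fos*, chr5:32156864-32156893 (plus strand) for *Fosl2* and chr4:95049207-95049236 (minus strand) for *Jun*.
Fos: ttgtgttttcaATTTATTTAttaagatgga
Fosl2: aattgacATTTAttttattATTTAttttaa
Jun: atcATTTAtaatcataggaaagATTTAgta
Whether these elements bear on the differences was not tested.

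Promoters from RefSeq (GRCm38.p6) were matched for 7 of the 10 genes, and those of *Fos* and *Jun*, whose proteins form the classical AP-1 pair, are shown over the 250 bases before the start. They lie at chr12:85473640-85473889 (plus strand) and chr4:95052223-95052472 (minus strand). The capitals mark matches to the motifs searched on both strands. In *Fos* these were an NF-κB site, TGACG at 2 places, which is the core of the cyclic AMP response element, and TATAAA. In *Jun* it was TGACATCA, a variant site of AP-1 and ATF proteins.
Fos: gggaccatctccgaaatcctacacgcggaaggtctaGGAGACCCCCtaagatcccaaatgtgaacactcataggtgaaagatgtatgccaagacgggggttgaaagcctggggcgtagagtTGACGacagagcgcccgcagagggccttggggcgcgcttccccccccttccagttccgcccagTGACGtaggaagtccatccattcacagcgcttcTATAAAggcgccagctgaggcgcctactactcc
Jun: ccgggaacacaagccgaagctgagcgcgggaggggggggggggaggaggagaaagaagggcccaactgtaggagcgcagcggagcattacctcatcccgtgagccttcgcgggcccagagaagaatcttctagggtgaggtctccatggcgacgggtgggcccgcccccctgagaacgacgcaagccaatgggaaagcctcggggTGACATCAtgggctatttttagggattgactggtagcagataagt
Of 32851 promoters of 300 bases, 20.8% held TGACG, 3.62% TGACATCA, 8.46% the NF-κB site and 13.6% TATAAA. The other motifs searched were TGACTCA (5.20% of promoters), TGACGTCA (1.79%, each of which also holds TGACG), the CArG box bound by SRF (1.63%), and the EGR sites GCGGGGGCG (2.91%) and GCGTGGGCG (0.612%). In promoters of the other family members, *Egr2* had CArG boxes, *Fosl2* and *Fosb* had GCGGGGGCG, and *Fosb*, *Junb* and *Egr2* had TGACG. NF-κB sites were also found in *Fosl2*, *Fosb* and *Egr2*, and *Junb* had TATAAA, which began at the start itself and not before it. The search covered 250 bases before the start and 50 after it. Sites farther away, including any CArG box of *Fos*, were not searched, nor were genes without a matched promoter. These matches are a description of the letters only.

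The family members spanned a wide range of levels per gene length. In the controls, *Jund* was the most abundant at 112 ± 17.6 FPKM (SD, n = 3), followed by *Junb* at 54.4 ± 6.02, *Egr1* at 39.0 ± 3.78 and *Jun* at 35.1 ± 1.46 FPKM. *Egr1* and *Jun* overlapped across the control libraries, although *Egr1* was above *Jun* within each of them, and overlap was also seen for *Fos* at 11.2 ± 2.31 and *Fosl2* at 10.3 ± 0.43 FPKM. The remaining genes were low, with *Fosl1* at 0.848 ± 0.041, *Egr2* at 0.780 ± 0.280, *Fosb* at 0.252 ± 0.080 and *Egr3* at 0.047 ± 0.068 FPKM, and *Fosl1* and *Egr2* also overlapped. In the knockdown samples *Jun* (31.7 ± 1.76 FPKM) stood above *Egr1* (15.3 ± 3.37 FPKM) in every library, and *Egr1* overlapped with *Fosl2* (12.6 ± 0.51 FPKM). *Fosl2* likewise stood above *Fos* (4.58 ± 0.57 FPKM) in every knockdown library. *Jund* and *Junb* remained the most abundant at 88.7 ± 18.3 and 51.9 ± 4.36 FPKM. The FPKM of *Fosl2* rest on a gene length of 9680 bases, against 6537 in its transcript with the longest coding sequence. For *Fos* these lengths were 2352 and 2108 bases, so the order and family shares of these genes within a library depend on the length used.

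*Egr1* (ENSMUSG00000038418), a zinc-finger factor that activates growth and matrix genes, was lower in the knockdown samples by about as much as *Fos*, and which of the 2 differed more depended on the libraries used. Ctrl shRNA replicates 1, 2 and 3 had 193, 164 and 166 CPM, against 61.0, 85.9 and 58.6 CPM in the knockdown replicates. Every knockdown sample was below every control, and Ctrl shRNA replicate 2 lay beside the other controls. The mean was 174 ± 16.1 CPM (SD, n = 3) in the controls and 68.5 ± 15.1 CPM (SD, n = 3) in the knockdown group, which was 0.393 times the control by the fit. This is -1.35 as a log2 fold change (standard error 0.17). With replicate 2 of the controls left out, the log2 fold change was -1.40 (standard error 0.15). Ordered from the lowest log2 fold change, *Egr1* was number 577 of 15307 genes tested, and number 59 of 15709 without that library. In bulk RNA, fewer cells expressing *Egr1* and less *Egr1* mRNA per cell cannot be told apart.

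*Egr2* and *Egr3*, close relatives of *Egr1* that bind similar sites, were barely expressed. *Egr2* had 111, 34 and 75 counts in the controls and 41, 48 and 66 in the knockdown samples. In CPM this was 3.59, 1.72 and 2.61 against 1.38, 1.58 and 2.23, and the groups overlapped only through Ctrl shRNA replicate 2. Its log2 fold change was -0.62 (standard error 0.35), -0.85 (standard error 0.27) without that library and -0.33 without Ctrl shRNA replicate 1. *Egr3* had 1, 11 and 1 counts in the controls and 3, 7 and 1 in the knockdown samples, was not tested and is given no fold change. *Egr1* made up 95.2% to 98.3% of the summed FPKM of the 3 genes, so the sum followed it, from 39.8 ± 4.0 to 15.9 ± 3.35 FPKM (SD, n = 3 each).

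*Fos* (ENSMUSG00000021250), the founding FOS gene and an AP-1 subunit with a strong activation domain, was also lower in the knockdown samples. Ctrl shRNA replicates 1, 2 and 3 had 23.3, 32.7 and 22.6 CPM, against 10.9, 12.0 and 9.34 CPM in the knockdown replicates. No knockdown sample reached the controls, and Ctrl shRNA replicate 2 was the highest of the controls. The mean was 26.2 ± 5.67 CPM (SD, n = 3) against 10.7 ± 1.33 CPM (SD, n = 3), which was 0.410 times the control by the fit. This is -1.29 as a log2 fold change (standard error 0.18). Without Ctrl shRNA replicate 2 the control mean was 22.9 ± 0.49 CPM (SD, n = 2), and the log2 fold change was -1.10 (standard error 0.12), or 0.465 times the control. It was number 635 from the lowest log2 fold change with all libraries and number 152 without that library.

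**Figure D1:**
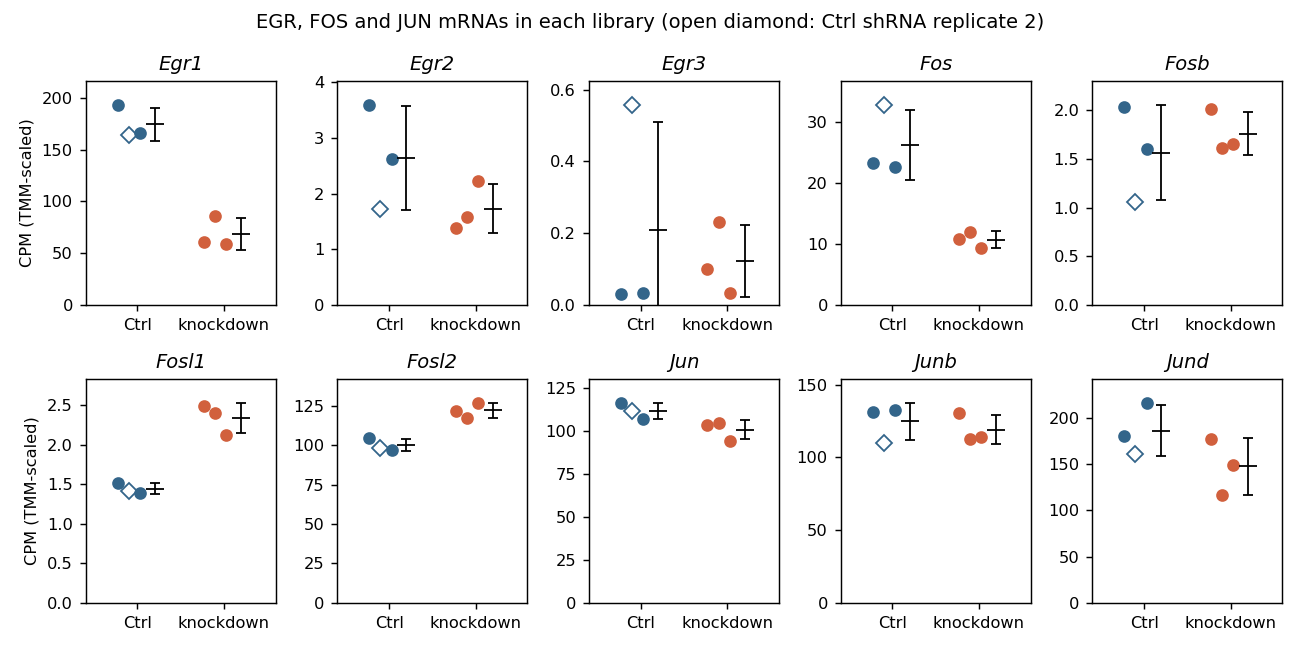
Level of each family member by library, in TMM-scaled CPM on an axis from 0, for Ctrl shRNA (blue, replicate 2 as an open diamond) and knockdown (orange), with the mean and SD of 3 libraries beside the points. *Egr1* and *Fos* lie lower in each knockdown library than in each control, *Fosl1* and *Fosl2* lie higher, and *Egr3* rests on 1 to 11 counts.

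*Fosl1* and *Fosl2* lay in the other direction from *Fos*, whereas the direction of *Fosb* depended on the libraries used. *Fosl2*, which encodes FRA-2, an AP-1 subunit without the strong activation domain of FOS, had 104, 98.2 and 97.2 CPM in the controls against 122, 117 and 127 CPM in the knockdown samples. All 3 knockdown samples were above all 3 controls, by a small margin. The log2 fold change was 0.29 (standard error 0.07), or 1.22 times the control, and 0.27 (standard error 0.07) without Ctrl shRNA replicate 2. *Fosl1*, which encodes the related FRA-1, had 47, 28 and 40 counts in the controls and 74, 73 and 63 in the knockdown samples. In CPM this was 1.52, 1.42 and 1.39 against 2.49, 2.41 and 2.12, again without overlap. Its log2 fold change was 0.69 (standard error 0.21), or 1.62 times the control, and 0.67 (standard error 0.22) without that library. *Fosb* was low and overlapped, with 2.04, 1.06 and 1.60 CPM in the controls and 2.02, 1.62 and 1.65 CPM in the knockdown samples. Its log2 fold change was 0.16 (standard error 0.31) with all libraries and -0.059 (standard error 0.25) without Ctrl shRNA replicate 2.

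The makeup of the FOS family thus differed between the groups. *Fos* made up 45.3%, 55.5% and 46.4% of the summed FOS family FPKM in Ctrl shRNA replicates 1, 2 and 3 and 24.4%, 27.0% and 21.4% in the knockdown replicates. *Fosl2* made up 49.2%, 40.5% and 48.5% and then 66.2%, 64.1% and 70.5%, and *Fosl1* 3.31% to 4.06% and then 6.70% to 7.68%. The ratio of *Fosl2* to *Fos* in FPKM was 1.09, 0.729 and 1.05 in the controls and 2.71, 2.37 and 3.30 in the knockdown samples. Each ratio is formed within a library, so its scaling does not enter. The sum of the 4 genes was 22.6 ± 2.06 FPKM (SD, n = 3) in the controls and 18.9 ± 0.20 FPKM (SD, n = 3) in the knockdown group, a smaller difference than that of *Fos* alone.

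**Figure D2:**
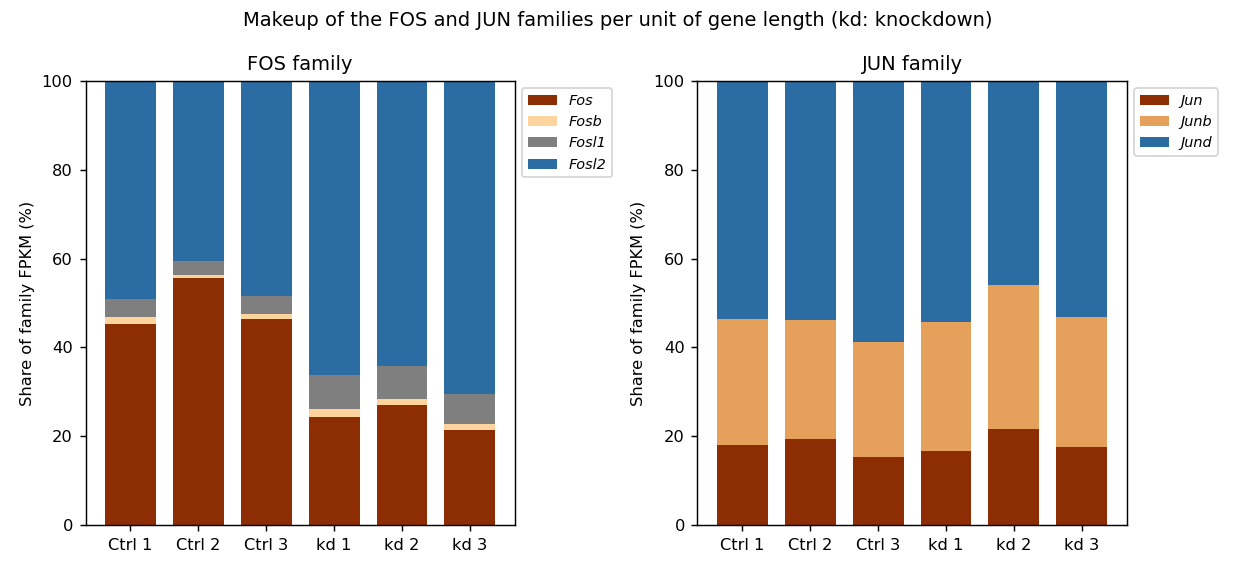
Share of each gene in the summed FPKM of its family (percent, left FOS family, right JUN family) in each of the 6 libraries (kd, knockdown). The *Fos* share is 45.3% to 55.5% in the controls and 21.4% to 27.0% in the knockdown libraries, whereas the shares of *Jun*, *Junb* and *Jund* overlap or lie close between the groups.

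The JUN genes supply the partner of the FOS proteins in AP-1, and each had a log2 fold change closer to 0 than that of *Fos*. *Jun*, the founding member, had 116, 111 and 107 CPM in the controls against 104, 104 and 94.2 CPM in the knockdown samples. The groups did not overlap but lay close, and the log2 fold change was -0.15 (standard error 0.08, 95% interval -0.33 to 0.04), and -0.16 (standard error 0.07) without Ctrl shRNA replicate 2. *Junb*, often an antagonist of JUN in growth control, stood at 132, 110 and 133 CPM against 131, 113 and 114 CPM, with overlapping groups. Its log2 fold change was -0.068 (standard error 0.11, 95% interval -0.33 to 0.19), and -0.16 (standard error 0.08) without Ctrl shRNA replicate 2. *Jund*, the most constantly expressed JUN gene in most cells, stood at 181, 161 and 216 CPM against 177, 116 and 150 CPM. These groups overlapped as well, and the log2 fold change was -0.34 (standard error 0.18, 95% interval -0.78 to 0.11), or -0.44 (standard error 0.15, 95% interval -0.79 to -0.09) without that library. It was -0.19 without knockdown replicate 2 and -0.23 without Ctrl shRNA replicate 3.

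With library sizes alone in place of TMM factors, which moved the median log2 fold change of all genes from -0.01 to 0.16, *Jun* and *Junb* were at 0.025 and 0.084. Both still lay below that median. The JUN family summed to 201 ± 22.5 FPKM (SD, n = 3) in the controls and 172 ± 22.2 FPKM (SD, n = 3) in the knockdown group. In its makeup, *Jund* at 53.7% to 58.7% and 46.0% to 54.3% of the sum and *Jun* at 15.2% to 19.4% and 16.6% to 21.6% overlapped between the groups. The *Junb* share was higher in every knockdown library, by a small margin, at 26.1% to 28.3% and 29.1% to 32.4%. The ratio of *Fos* to *Jun* in FPKM ranged from 0.272 to 0.399 in the controls and from 0.134 to 0.156 in the knockdown samples, and that of *Fosl2* to *Jun* from 0.291 to 0.299 and from 0.370 to 0.443.

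**Figure D3:**
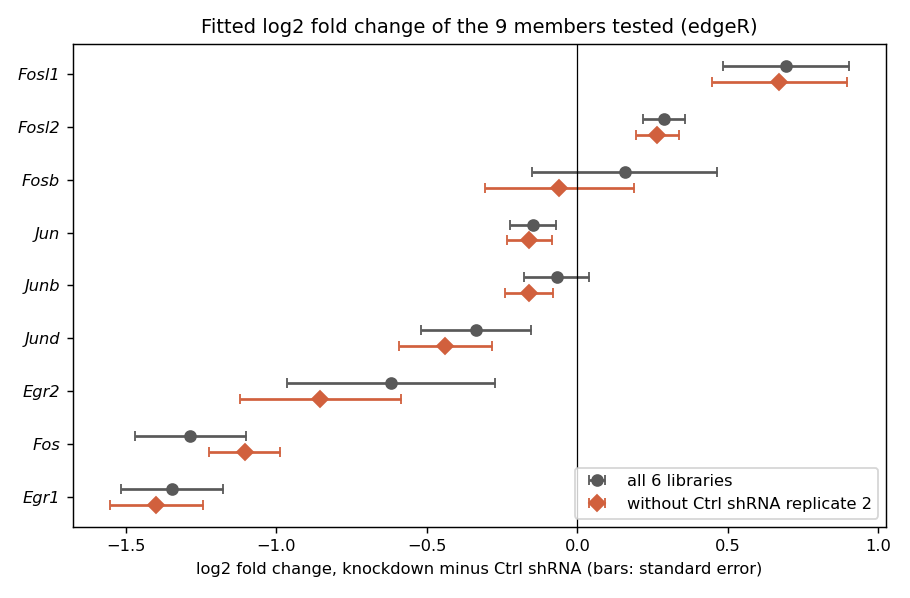
Fitted log2 fold change (knockdown minus Ctrl shRNA, horizontal axis, with standard error) of the 9 family members tested, for all 6 libraries (gray circles) and without Ctrl shRNA replicate 2 (orange diamonds). *Egr1* and *Fos* lie between -1.40 and -1.10 in both, *Fosl1* and *Fosl2* above 0 in both, and *Fosb* moves across 0.

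Of the 9 family members tested, 2 were higher (*Fosl1* and *Fosl2*) and 3 lower (*Egr1*, *Fos* and *Jun*) without overlap of the groups in CPM, and 4 overlapped. Over all genes tested the shares without overlap were 14.7% higher and 10.7% lower. Without Ctrl shRNA replicate 2, *Egr2*, *Junb* and *Jund* joined the lower genes and only *Fosb* overlapped, where the shares over all genes were 20.3% higher and 17.3% lower. In edgeR's quasi-likelihood test with all libraries, 0 family members passed an adjusted p of 0.05 in either direction, against 0.0588% of genes higher and 0.00653% lower. At an unadjusted p under 0.05 there were 2 higher (*Fosl1* and *Fosl2*) and 2 lower (*Egr1* and *Fos*), next to 1144 higher and 1018 lower genes of 15307. Without Ctrl shRNA replicate 2, *Egr1* and *Fos* were past the adjusted threshold, against 1.11% of genes higher and 0.675% lower. With DESeq2 and all libraries *Egr1* and *Fos* were lower and *Fosl2* higher, against 2.2% of genes higher and 1.6% lower, while *Fosb* and *Fosl1* had no adjusted p. Since these contrasts chose the genes, nothing is read from the counts.

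Reads of some family members cannot be assigned with certainty, since no source used here says whether reads were counted by strand. In GENCODE M21, *Fosl1* has an opposite-strand neighbour, *Ccdc85b*, whose transcripts hold 1069 of its 2031 stretches of 50 bases. The deposited coordinates place these genes apart on chromosome 19, with *Fosl1* ending at 5455945 and *Ccdc85b* starting at 5456789. *Ccdc85b* had 495 to 700 counts per library against 28 to 74 for *Fosl1*. The log2 fold change of *Ccdc85b* was -0.24 (standard error 0.15), with overlapping groups, and the part of its reads in the *Fosl1* counts was not tested. *Jun* shares 183 of 3140 such stretches with the antisense gene *Junos* (0 to 15 counts), and *Junb* 127 of 2203 with *Prdx2*, which stood at 705 CPM in Ctrl shRNA replicate 2 and at 252 to 267 CPM in the others. *Jund* shares 782 of 1619 with the antisense gene *Gm11175*, which had 0 counts in all libraries. No stretch of 50 bases was shared between family members, and *Jun*, *Junb* and *Jund* consist of a single exon, as do 7.01% of 21606 protein-coding genes.

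The wider pathway was described with 9 lists of 143 genes, some on more than 1 list, of which 134 were tested. With all libraries, 2 of these genes were higher and 0 lower at an adjusted p under 0.05 in edgeR's quasi-likelihood test, and 31 higher and 7 lower at an unadjusted p under 0.05. In the whole set of 15307 tested genes the shares past the adjusted threshold were 0.0588% and 0.00653%, and 1144 and 1018 genes were past the unadjusted one. Without Ctrl shRNA replicate 2, 10 list genes were higher and 3 lower, against 1.11% and 0.675% of all genes, and with DESeq2 12 and 1, against 2.2% and 1.6%. Of 35 other immediate early genes, 34 were tested, and their median log2 fold change was 0.07 against -0.01 over all genes. *Plk2*, a stress-induced kinase, was higher with all libraries, at 21.6 to 23.7 CPM in the controls and 46.3 to 47.6 CPM in the knockdown samples (log2 fold change 1.07, standard error 0.08, adjusted p = 0.0223 from edgeR). When Ctrl shRNA replicate 2 was left out, *Plk2* (1.04) and *Myc* (0.64, adjusted p = 0.0211 from edgeR), a growth regulator, were higher. *Ier2*, a nuclear protein gene induced with *Fos*, was lower, at 86.9 to 111 CPM against 57.2 to 61.2 CPM (log2 fold change -0.90 without that library, adjusted p = 0.000913 from edgeR). So was the antiproliferative gene *Btg2* (log2 fold change -0.42, adjusted p = 0.0313 from edgeR). The list was thus mixed in direction, and its most abundant genes by mean FPKM over all libraries, *Cyr61*, *Klf4* and *Ier3*, were at 0.043, -0.060 and 0.25 on the log2 scale (adjusted p = 0.862, 0.768 and 0.320 from edgeR).

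The upstream lists held few called genes. Of 20 genes of the ERK cascade, 0 were called in either direction in edgeR with or without Ctrl shRNA replicate 2, or in DESeq2, and at an unadjusted p under 0.05 there were 0 higher and 1 lower. Their median log2 fold change was 0.09, and the abundant kinase *Mapk3* and the adaptor *Grb2* were at 0.081 and 0.014. Without Ctrl shRNA replicate 2 the median was 0.003, and *Mapk3* and *Grb2* were at -0.008 and -0.043. In that fit 1 gene of the cascade was higher and 3 lower at an unadjusted p under 0.05 from edgeR. Of 17 genes tested in the JNK and p38 cascade, 0 were called in edgeR with all libraries, 5 were higher and 0 lower at an unadjusted p under 0.05, and DESeq2 called 1 higher. This was *Mapkapk3*, a kinase activated by p38 that was named after its values were seen (log2 fold change 1.00, adjusted p = 0.0127 from DESeq2). The p38 kinase *Mapk11* was higher in edgeR without Ctrl shRNA replicate 2 (log2 fold change 0.43, adjusted p = 0.0497 from edgeR). Here *Mapkapk2*, *Mapk14* and *Map2k7* were the most abundant, with log2 fold changes of 0.14, 0.33 and 0.13 with all libraries. Without Ctrl shRNA replicate 2 these were 0.022, 0.20 and 0.004. Of 13 regulators of the SRF, ternary complex and CREB group, which act on the promoters of immediate early genes, 0 were called in edgeR with all libraries, 2 were higher and 0 lower at an unadjusted p under 0.05, and DESeq2 called 1 higher, *Creb5*. It was also higher in edgeR without Ctrl shRNA replicate 2 (log2 fold change 0.81, adjusted p = 0.0290 from edgeR), while *Srf*, *Atf1* and *Crtc2* were at -0.025, 0.23 and 0.25 with all libraries.

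Among partners and regulators of the EGR and AP-1 proteins, 13 AP-1 and bZIP genes were tested. In edgeR with all libraries 0 were called, with 3 higher and 1 lower at an unadjusted p under 0.05, and DESeq2 called 1 higher, the small MAF gene *Mafk* (log2 fold change 0.45), which was named after its values were seen. In the fit without Ctrl shRNA replicate 2, *Nfe2l2*, which encodes the oxidative stress factor NRF2, was higher (log2 fold change 0.53, adjusted p = 0.0194 from edgeR), and *Jdp2*, a repressor of AP-1, was lower (-0.44, adjusted p = 0.0268 from edgeR). *Nfe2l2* stood at 969 CPM in Ctrl shRNA replicate 2 but at 430 and 440 CPM in the other controls, so with all libraries its log2 fold change was 0.046. *Cebpb* and *Mafg*, the next in mean FPKM over all libraries, were at -0.36 and 0.37. Of the EGR corepressors, *Nab1* and *Nab2* were at 0.28 and 0.25 and *Wt1* at 0.095. Of these 3 genes, 0 were called in edgeR or DESeq2, 1 was higher at an unadjusted p under 0.05, and *Egr4* had 0 counts. Of 9 proteins that bind AU-rich elements, 0 were called in edgeR or DESeq2, 3 were higher and 0 lower at an unadjusted p under 0.05, and *Zfp36l2*, *Khsrp* and *Hnrnpd* were at 0.13, 0.19 and 0.22.

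Among genes known as targets of the EGR and AP-1 factors, those past the threshold in edgeR or DESeq2 were higher in the knockdown group. Of 14 genes tested among EGR targets, *Thbs1*, a matrix protein gene, was higher, at 58.6 to 65.2 CPM in the controls and 131 to 135 CPM in the knockdown samples (log2 fold change 1.13, standard error 0.07, adjusted p = 0.0182 from edgeR). *Pdgfb*, a growth factor gene, was also higher without Ctrl shRNA replicate 2 (log2 fold change 0.37, adjusted p = 0.0478 from edgeR), and 0 were lower in either fit, with 7 higher and 1 lower at an unadjusted p under 0.05. DESeq2 called 4 higher and 0 lower, among them *Icam1* (0.52), which was named after its values were seen. *Sod1*, *Fn1* and *Gadd45b*, the most abundant of the list, were at -0.80, 0.34 and 0.35 with all libraries and at -0.12, 0.26 and 0.33 without Ctrl shRNA replicate 2. *Sod1* stood at 965 CPM in Ctrl shRNA replicate 2 against 281 to 371 CPM elsewhere. Of 17 genes tested among AP-1 targets, 0 were called in edgeR with all libraries, 5 were higher and 0 lower at an unadjusted p under 0.05, and DESeq2 called 3 higher. In the fit without Ctrl shRNA replicate 2, 3 were higher, namely the chemokine gene *Ccl2* (log2 fold change 2.92, adjusted p = 0.00021 from edgeR), *Plaur*, the urokinase receptor gene (0.87, adjusted p = 0.0165 from edgeR), and *Cd44*, an adhesion receptor gene (0.70, adjusted p = 0.0142 from edgeR). *Ccl2* had 2.13, 9.92 and 3.24 CPM in the controls against 19.4, 20.7 and 21.1 CPM after knockdown, without overlap, and its log2 fold change with all libraries was 2.02. The abundant targets *Mt1*, *Vim* and *Ccnd1* had log2 fold changes of -1.50, -0.30 and 0.29 with all libraries and of -0.13, 0.017 and 0.23 without Ctrl shRNA replicate 2. *Mt1* stood at 1532 CPM in Ctrl shRNA replicate 2 against 228 to 299 CPM elsewhere. The median log2 fold change was 0.30 for the EGR targets and 0.26 for the AP-1 targets, against -0.01 for all genes. Over 15 alternatives, the adjusted p of *Thbs1* ran from 5.92e-31 to 0.455 and that of *Plk2* from 2.68e-24 to 0.455, and both kept a log2 fold change of at least 0.94. For the other 11 list genes past the threshold in edgeR with all libraries or without Ctrl shRNA replicate 2, the lowest adjusted p in edgeR, DESeq2 or limma was 1.2e-06 to 0.0194 and the highest 0.637 to 0.991. Of these 11, all but *Nfe2l2*, whose lowest log2 fold change was -0.17, kept their direction.

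**Figure D4:**
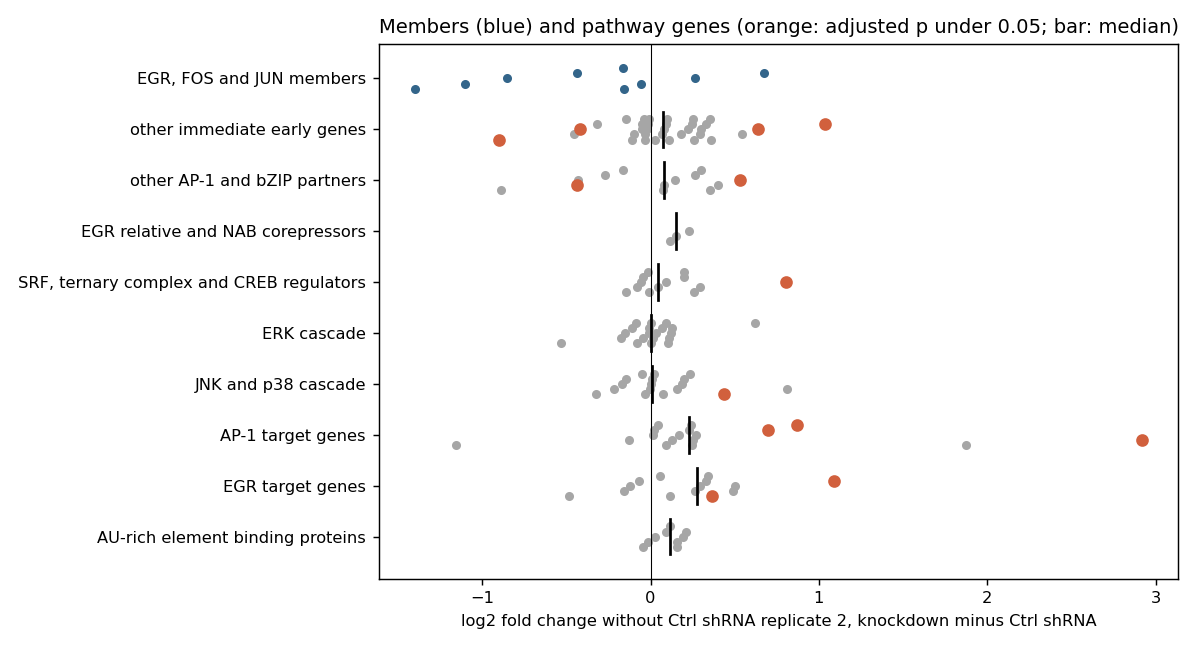
Log2 fold change without Ctrl shRNA replicate 2 (knockdown minus Ctrl shRNA, horizontal axis) of the 9 family members tested (blue) and of the genes of 9 pathway lists, 1 point per gene, orange where edgeR's adjusted p was under 0.05, with a bar at each list's median. *Egr1* and *Fos* lie at -1.40 and -1.10, and the medians of the lists lie between 0.003 and 0.28.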

How the data were processed

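Total RNA of 6 MLE12 samples, 3 per group as given in the labels, was sequenced on an Illumina instrument with paired ends. The files that the authors deposited hold raw read counts for each Ensembl gene, and FPKM values for the same genes, in which the counts are scaled by gene length and by the authors' own library size (0.716 to 1.08 times the total count). The submitters' processing notes name HISAT2 2.0.5, StringTie 1.3.3b, featureCounts 1.5.0-p3 and mm10. The use of strand is not given in the sources used here. Nothing in the labels says that the 3 samples of a group were separate cultures, so p-values measure only the spread between these samples.

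In R 4.3.3, edgeR 4.0.16 was used for the filter on low counts (filterByExpr), the TMM factors and the quasi-likelihood test, without covariates and with Benjamini-Hochberg adjustment over 15307 genes and a threshold of 0.05. Levels of different genes were compared as FPKM only. The family members and the gene lists, written from general knowledge, were chosen with earlier results of these data known. The text names all family members, the targeted genes, each list gene past the threshold with all libraries or without Ctrl shRNA replicate 2, and the 3 most abundant genes per list. Some items are not reported here. Genes overlapping a family member and cell type markers are named as measured facts. Alternatives were size factors by median of ratios, raw library sizes, a minimum of 10 counts in each sample, a test without any count filter, DESeq2 1.42.0 (genes with no adjusted p stay without one), limma 3.58.1 on log2(FPKM + 1) and with a pseudocount of 0.1 for genes with an FPKM of at least 0.5 in 3 libraries, limma with sample quality weights, the replicate number as a block, and each library left out. The tests were tested on simulated data. All pairs of replicates differed by more than sampling noise (chi-square per degree of freedom 6.13 to 503). Annotation was GENCODE M21, and promoters and their positions were taken from RefSeq. Figures were made in matplotlib 3.10.9 (Python 3.11.15, pandas 2.3.3). All columns of per-sample values were used.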

Additional observations from a re-analysis of the deposited data

How the results depend on the processing

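Across 15 alternatives the log2 fold change of *Egr1* ran from -1.54 to -1.18 and that of *Fos* from -1.40 to -1.07. Those of *Fosl1*, *Fosl2*, *Egr2* and *Jund* also kept their sign in each of 15. The sign turned for *Fosb* without Ctrl shRNA replicate 2 (-0.059, within a range of -0.059 to 0.394 when 1 library was left out) and, with library size only, for *Jun* (0.025) and *Junb* (0.084), where the median of all genes was 0.16. With library size only, 1 gene was higher, 0 lower and 0 list genes higher. With no count filter, 3 genes and 1 family member (*Egr1*) were lower, and limma on FPKM gave 3 lower genes with a pseudocount of 1 and 3 with 0.1. DESeq2 gave 265 higher and 192 lower genes, 12 and 1 list genes, and 1 and 2 family members. Limma with sample quality weights gave 1327 and 971 genes, 33 and 6 list genes, and 2 and 2 family members. Leaving out 1 library gave 0 to 175 higher and 0 to 106 lower genes, 0 to 10 and 0 to 3 list genes, and 0 and 0 to 2 family members. Each highest value came without Ctrl shRNA replicate 2, 1 gene was higher without Ctrl shRNA replicate 1, and 0 genes were called without any other library. Without Ctrl shRNA replicate 2 the biological coefficient of variation was 0.102 against 0.263. The cause of these shifts was not tested. With the replicate number as a replicate block, 0 genes were higher, 0 lower and 0 list genes higher. Deviations of samples with the same number correlated at -0.155, -0.092 and 0.043. The labels give these samples only a shared number, and such correlations cannot show whether they were handled as pairs. *Egr2*, *Egr3*, *Fosb* and *Fosl1* had at most 111 counts in a library, which limits their precision.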
